A study of Homo sapiens with 72 samples.

Results

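DU145 is a human prostate cancer cell line whose wild-type cells make almost no LIN28A mRNA. The poly(A) RNA libraries described here compare wild-type DU145 cells that were made to express LIN28A with the parental DU145 cells. They were chosen by their labels as the mRNA libraries of LIN28A-overexpressing and LIN28A-negative DU145 with TUT4 and TUT7 intact, and they number 8 of the 72 samples of the series, 4 in each group. The overexpressing group (LIN28A-OE, genotype LIN28A+, TUT4+, TUT7+) was a stable line carrying lentivirally integrated LIN28A cDNA under the CMV promoter. That cDNA had neither introns nor the 3′ UTR of the gene, and the transduced cells had been selected with puromycin. The control group (parental, LIN28A negative with TUT4 and TUT7 intact) was neither transduced nor selected, and no library of an empty vector was used here. The labels give passages P1 to P4 for the LIN28A-OE libraries and passages P157 to P160 for the parental ones, so the 4 replicates of a group were successive passages of 1 line. LIN28A, transduction, puromycin selection and passage history therefore cannot be told apart in this comparison, and every p-value below measures only the spread between successive passages.

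LIN28A is an RNA-binding protein of embryonic cells that binds the precursors of let-7 miRNAs and blocks their maturation. It recruits the terminal uridylyl transferases TUT4 and TUT7, which add a uridine tail to the bound precursor and so mark it for decay. Mature let-7 miRNAs repress mRNAs that carry matches to their shared seed, among them growth and oncofetal genes such as HMGA2, the IGF2BP RNA-binding proteins and LIN28A itself, whose site in the 3′ UTR the cDNA lacks.

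The mature sequences of the let-7 family are printed because their common seed sets which mRNAs they recognise. Capitals mark the seed, bases 2 to 8 counted from the 5′ end. The sequences come from RefSeq (GRCh38.p14), all 9 matched by name, and each is 22 nucleotides long.
let-7a-5p: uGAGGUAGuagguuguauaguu
let-7b-5p: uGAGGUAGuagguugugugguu
let-7c-5p: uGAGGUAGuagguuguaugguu
let-7d-5p: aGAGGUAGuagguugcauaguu
let-7e-5p: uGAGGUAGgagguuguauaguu
let-7f-5p: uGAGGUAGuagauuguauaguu
let-7g-5p: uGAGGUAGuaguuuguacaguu
let-7i-5p: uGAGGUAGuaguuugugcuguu
miR-98-5p: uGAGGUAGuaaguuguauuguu
All 9 had the seed GAGGUAG and differed from each other at 1 to 6 positions outside it. A single base separated 4 of the pairs, so reads of such members may have been assigned to a neighbour where sequencing or matching allowed a mismatch.

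In the small RNA libraries of the same 2 lines (4 each), the let-7 family took 2.03%, 1.62%, 2.05% and 1.89% of miRNA reads in LIN28A-OE replicates 1 to 4. The parental libraries gave 8.30%, 7.26%, 7.33% and 7.84%. The groups were far apart, at 1.90% ± 0.195 and 7.68% ± 0.485 (SD, n = 4 each), a 4.05-fold lower share in LIN28A-OE. An exact two-sided permutation test gave p = 0.0286, the smallest value that 4 libraries against 4 allow. Every member was lower in all 4 LIN28A-OE libraries than in any parental library, but by very different factors. let-7i kept 0.0490 of its parental level, let-7d 0.0518, miR-98 0.0598, let-7f 0.0764, let-7b 0.0975 and let-7g 0.111. By contrast let-7e kept 0.447, let-7a 0.580 and let-7c 0.658. let-7a, the most abundant member, stood at 12254 to 16216 CPM (counts per 1000000 counts of the library, here of miRNA reads) in LIN28A-OE and 23446 to 28502 in the parental line, so most of the let-7 left in LIN28A-OE cells was assigned to let-7a.

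The mRNA libraries held 9867217 to 18068012 reads assigned to genes in LIN28A-OE and 8489947 to 10874814 in the parental line, and 13448 of 26485 genes had enough reads to be tested. Epithelial markers (EPCAM, KRT8, KRT18, KRT19 and CDH1) summed to 1443 to 2584 CPM in LIN28A-OE and 1442 to 2522 in the parental line. Of the prostate luminal markers, KLK2, KLK3 and FOLH1 were at 0 in all 8 libraries and HOXB13 at 0 or near it. The leukocyte markers summed to at most 2.53 CPM and the endothelial ones to at most 2.13. The fibroblast markers summed to 7.47 to 12.3 CPM in LIN28A-OE and 4.23 to 6.23 in the parental line, nearly all of it COL1A1 (6.86 to 12.03 against 4.05 to 5.81), while DCN and LUM were at 0. In such bulk libraries, fewer cells of a type and less RNA per cell cannot be told apart.

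The LIN28A-OE library of replicate 1 stood apart from its group. Over all expressed genes its mean correlation was 0.970 with the parental libraries and 0.929 with the other LIN28A-OE libraries. The first principal component (68.5% of the variance) placed it among the parental libraries. The mean level of 50 cell cycle genes, as log2(CPM + 0.5), was 6.71, 5.16, 4.73 and 5.05 in LIN28A-OE replicates 1 to 4 and 6.60, 5.55, 5.89 and 6.59 in the parental ones. LIN28A-OE replicate 1 was thus as high as the highest parental libraries, the other LIN28A-OE libraries were below all of them, and the parental libraries themselves spanned about 1 log2 unit. What set this axis was not tested. Counts of changed genes are given below with and without this library.

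LIN28A (chromosome 1, 26410817 to 26429728, GRCh38.p14) had 1287, 1163, 1017 and 639 counts in the LIN28A-OE libraries, or 72.7, 67.8, 73.4 and 62.6 CPM (from here on of library totals scaled by TMM, edgeR's correction for library composition). The parental libraries had 0, 0, 5 and 0 counts. LIN28A-OE replicate 1 carried as much of the transgene mRNA as the others, so its distance from its group went with no lower LIN28A level. The log2 fold change was 8.96 (SE 0.47; adjusted p = 8.84e-05, edgeR quasi-likelihood test with Benjamini-Hochberg adjustment, as for every adjusted p below unless another test is named). LIN28B, the paralog of LIN28A, had 0 to 3 counts in any library and was not tested.

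The 2 enzymes that work with LIN28A were expressed in both groups. TUT4 (listed as ZCCHC11) stood at 53.4, 62.1, 72.4 and 73.7 CPM in LIN28A-OE and 48.3, 63.8, 64.8 and 50.7 in the parental line, which overlapped (log2 fold change 0.20, SE 0.15, adjusted p = 0.384). TUT7 (listed as ZCCHC6) stood at 52.9, 73.8, 58.5 and 61.5 CPM against 33.7, 52.4, 44.1 and 42.9. Its groups did not overlap, but the difference of 0.51 (SE 0.15) missed the threshold (adjusted p = 0.0731).

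**Figure D1:**
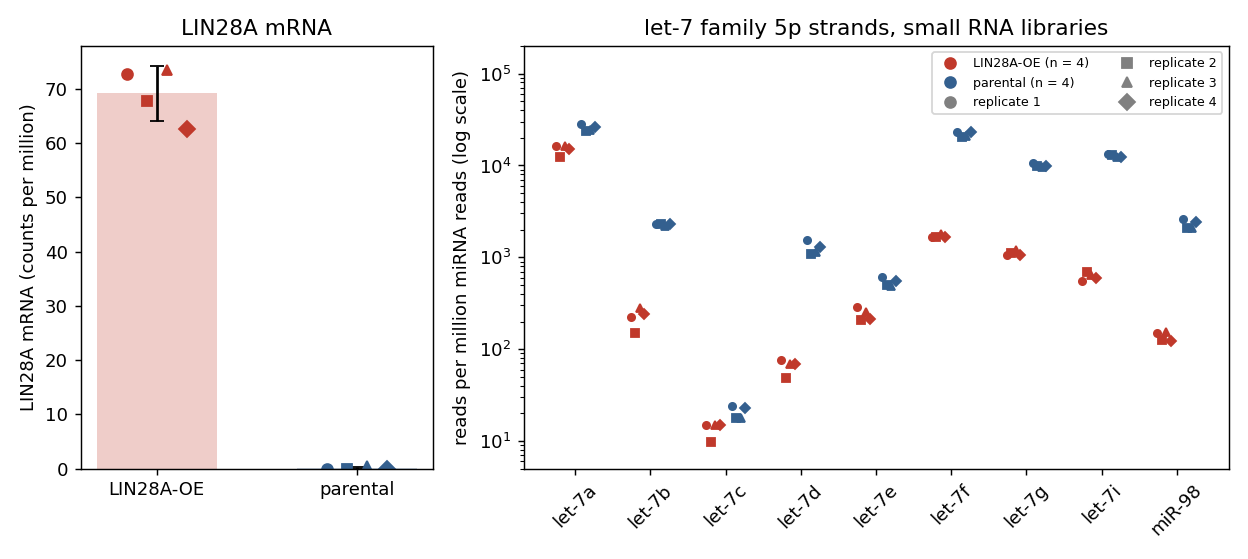
LIN28A mRNA in CPM (left; bars are means, error bars SD, n = 4) and CPM of each let-7 5p strand among miRNA reads on a log axis (right), one symbol per library, LIN28A-OE in red and parental in blue. LIN28A stands at 62.6 to 73.4 CPM in LIN28A-OE and near 0 in the parental line, and all 9 let-7 members are lower in LIN28A-OE, let-7a, let-7c and let-7e the least.

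At an adjusted p under 0.01, 132 genes rose in LIN28A-OE (0.982% of genes tested) and 69 fell (0.513%), 201 in all (1.49%). At an unadjusted p under 0.05 the count was 3646 (27.1%). Of the 201 genes, 82 rose and 50 fell by at least 1 on the log2 scale. The 4 against 4 CPM values did not overlap for any of the 201 genes, as was the case, higher in LIN28A-OE, for 9.61% of all genes tested and, lower, for 6.1%. Without LIN28A-OE replicate 1 the count was 1973 (1089 higher, 8.01%, and 884 lower, 6.5%; 14.5% in all), and it held all 201 genes. With the cell cycle mean as a covariate, an alternative chosen after the data had been seen, 497 genes were called (305 higher, 2.27%, and 192 lower, 1.43%; 3.7% in all), again with all 201 among them. Leaving out LIN28A-OE replicate 2, 3 or 4 left 31, 42 and 34 calls, and leaving out parental replicate 1, 2, 3 or 4 left 41, 39, 4 and 54. All 201 genes kept their sign in each of these fits. Since their groups did not overlap, leaving out a library could hardly have turned a sign.

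Among the genes of largest increase, ALPPL2, a germ cell and placental alkaline phosphatase, stood at 11.6, 48.4, 39.4 and 53.8 CPM in LIN28A-OE replicates 1 to 4 and 0.880, 0.904, 1.35 and 1.80 in the parental ones. LIN28A-OE replicate 1 was the lowest of its group and still far above the highest parental library (log2 fold change 4.95, SE 0.52, adjusted p = 0.00192). The adjacent placental alkaline phosphatase ALPP (chromosome 2, 232378751 to 232382889) was at 17.7, 38.6, 18.6 and 34.1 CPM against 1.10, 4.12, 3.61 and 1.68, a change of 3.34 (SE 0.42, adjusted p = 0.00409). The 2 genes are near-identical copies whose reads may be shared, so the split between them is uncertain. MMP28, the secreted metalloprotease epilysin, read 18.2, 29.8, 40.2 and 43.9 CPM against 0.880, 2.01, 1.72 and 3.36 (4.06, SE 0.39, adjusted p = 0.00174). VTN, the matrix and serum protein vitronectin, read 19.2, 33.8, 41.0 and 35.9 CPM against 1.10, 3.51, 2.53 and 4.44 (3.49, SE 0.37, adjusted p = 0.00211). In both genes the groups were far apart and LIN28A-OE replicate 1 was again the lowest of its group.

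The aldo-keto reductases AKR1C1 and AKR1C2, which reduce steroid hormones and lie next to each other on chromosome 10, also rose. AKR1C1 was at 48.2, 84.1, 101 and 108 CPM in LIN28A-OE and 4.40, 5.82, 9.12 and 13.8 in the parental line (3.37, SE 0.38, adjusted p = 0.00232). AKR1C2 was at 17.5, 35.1, 41.7 and 40.6 CPM against 2.97, 4.92, 5.42 and 10.1 (2.53, SE 0.38, adjusted p = 0.00729). Their sequences are also close enough for reads to be shared. CYP24A1, which inactivates vitamin D, stood at 183, 309, 244 and 229 CPM against 31.3, 39.7, 31.8 and 70.4 (2.48, SE 0.28, adjusted p = 0.00235). The other genes among the largest increases were MAP2, a microtubule-associated protein of neurons (2.69), KLB, the co-receptor beta-Klotho (2.67), the transmembrane glycoprotein GPNMB (2.58) and the muscle enolase ENO3 (2.38), with adjusted p-values from 0.00192 for KLB to 0.00915 for GPNMB.

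Among the 12 genes of largest decrease, IL1RL1, the receptor for interleukin 33, was at 0.339, 1.05, 0.722 and 0.979 CPM in LIN28A-OE and 4.18, 13.1, 18.2 and 5.27 in the parental line. The parental values were themselves spread over a wide range, but none came near the LIN28A-OE ones (log2 fold change -3.74, SE 0.55, adjusted p = 0.00704). CXCL8, the neutrophil chemokine interleukin 8, was at 2.03, 6.52, 1.81 and 0.979 CPM against 33.5, 27.4, 21.5 and 17.7 (-3.09, SE 0.49, adjusted p = 0.00855). CD274, which encodes PD-L1, was at 3.73, 3.20, 1.52 and 1.76 CPM against 16.5, 11.04, 10.7 and 11.99 (-2.26, SE 0.30, adjusted p = 0.00501). TNC, the matrix protein tenascin C, was at 34.8, 17.5, 15.5 and 28.4 CPM against 110, 103, 117 and 127 (-2.25, SE 0.25, adjusted p = 0.00224). The groups were apart in each of these genes, with LIN28A-OE replicate 1 in its own group, as the rule that picked them required. Others of this set were NAV3 (-2.94), a neuron navigator protein, BMPER (-2.75), a secreted regulator of BMP signalling, CBLC (-2.64), an E3 ubiquitin ligase, COL13A1 (-2.38), a transmembrane collagen, TKTL1 (-1.99), a transketolase-like protein, SPOCD1 (-1.87), TNFAIP3 (-1.84), the NF-kB inhibitor A20, and UAP1 (-1.79), which makes UDP-N-acetylglucosamine. Their adjusted p-values ran from 0.00144 for CBLC to 0.00881 for UAP1.

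**Figure D2:**
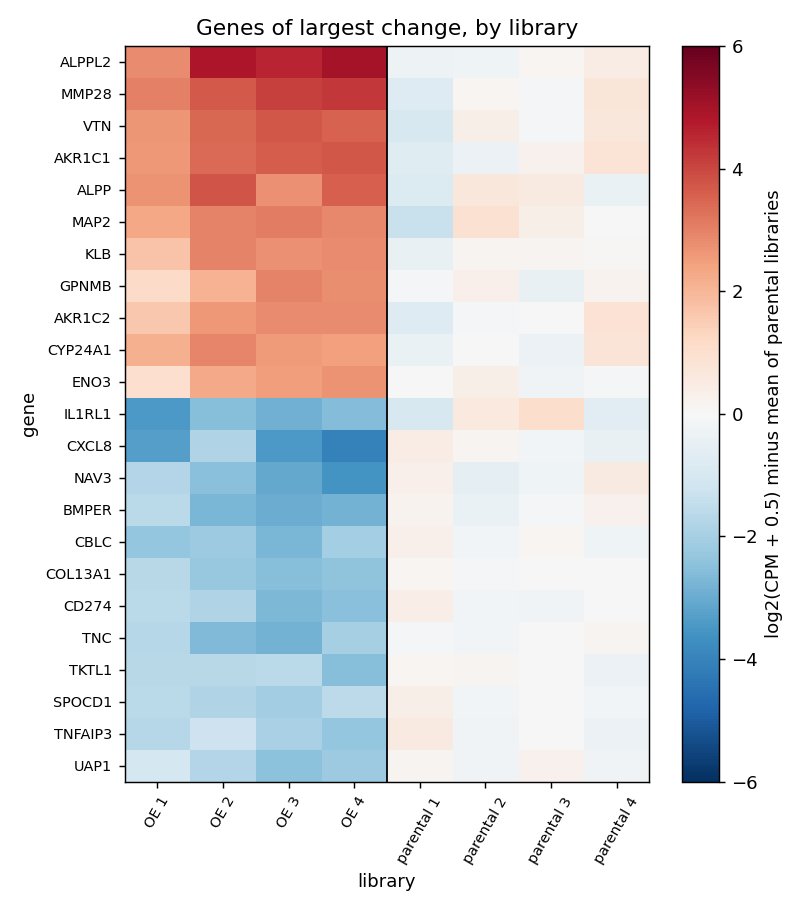
Color gives log2(CPM + 0.5) of each gene (rows) in each library (columns, OE for LIN28A-OE), minus the gene's mean over the 4 parental libraries, for the 11 genes of largest increase after LIN28A and the 12 of largest decrease. All 4 LIN28A-OE columns differ from the parental ones in each row, as the choice of genes without overlap required. OE 1 is the palest in most of the genes that rose, such as ALPPL2 at 11.6 CPM against 39.4 to 53.8 in the other 3.

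Of 54 mRNAs known as let-7 targets, 47 were tested; 4 rose and none fell (8.51% and 0% of those tested, against 0.982% and 0.513% of all genes). Their median log2 fold change was 0.24 and that of all genes tested -0.0056. The mean level of 44 targets with enough reads was 5.59, 5.45, 5.30 and 5.30 in LIN28A-OE replicates 1 to 4 and 5.15, 5.14, 5.16 and 5.23 in the parental ones, on the log2(CPM + 0.5) scale. No overlap was seen, and LIN28A-OE replicate 1 was here the highest of its group. DICER1 (chromosome 14, 95086228 to 95158010), the nuclease that cuts miRNA precursors, stood at 270, 261, 260 and 274 CPM in LIN28A-OE and 91.0, 129, 113 and 113 in the parental line. The LIN28A-OE values were nearly alike and 2.39 times the parental mean (1.26, SE 0.12, adjusted p = 0.00174).

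IGF2BP3 (chromosome 7, 23310209 to 23470491), an oncofetal RNA-binding protein, was at 59.97, 48.4, 34.2 and 40.8 CPM against 20.3, 20.3, 16.8 and 24.1 (1.17, SE 0.19, adjusted p = 0.00872). ARID3A, a DNA-binding factor of the ARID family, was at 17.3, 23.8, 17.6 and 16.2 CPM against 6.93, 6.93, 7.13 and 9.35 (1.31, SE 0.17, adjusted p = 0.00501). B3GNT7, a glycosyltransferase, was at 4.12, 6.23, 10.6 and 8.13 CPM against 1.43, 1.10, 1.62 and 1.80 (2.28, SE 0.32, adjusted p = 0.00622). In all of these the groups did not overlap.

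Several further targets lay just outside the threshold. IGF1R, the IGF1 receptor, was at 229, 272, 291 and 295 CPM against 124, 179, 157.3 and 169 (0.79, SE 0.14, adjusted p = 0.0126). BACH1, a repressor of antioxidant genes, differed by 1.16 (adjusted p = 0.0174), IGF2BP1, the relative of IGF2BP3, by 1.08 (adjusted p = 0.0197), and ARID3B by 1.08 (adjusted p = 0.0269). Without LIN28A-OE replicate 1, 11 of 49 targets tested rose and 3 fell (22.4% and 6.12%, against 8.01% and 6.5% of all genes), and the 11 included IGF1R, INSR, BACH1, IGF2BP1, ARID3B and ITGB3. The 3 that fell then were CDK6, RRM2 and CDC25A, which drive the G1 to S transition or DNA synthesis. With the cell cycle covariate, 10 of 47 rose and none fell (21.3%, against 2.27% of all genes). Other well-known targets, named here after their values had been seen, did not pass. HMGA2, an architectural chromatin protein, was at 7.17, 4.95, 3.18 and 5.19 CPM against 2.53, 2.71, 3.07 and 2.64 (0.90, SE 0.25, adjusted p = 0.0587). MYC differed by -0.17, NRAS by -0.03 and CCND1 by -0.03, with adjusted p-values from 0.470 for MYC to 0.942 for CCND1. HMGA1 differed by -0.55 (adjusted p = 0.112).

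**Figure D3:**
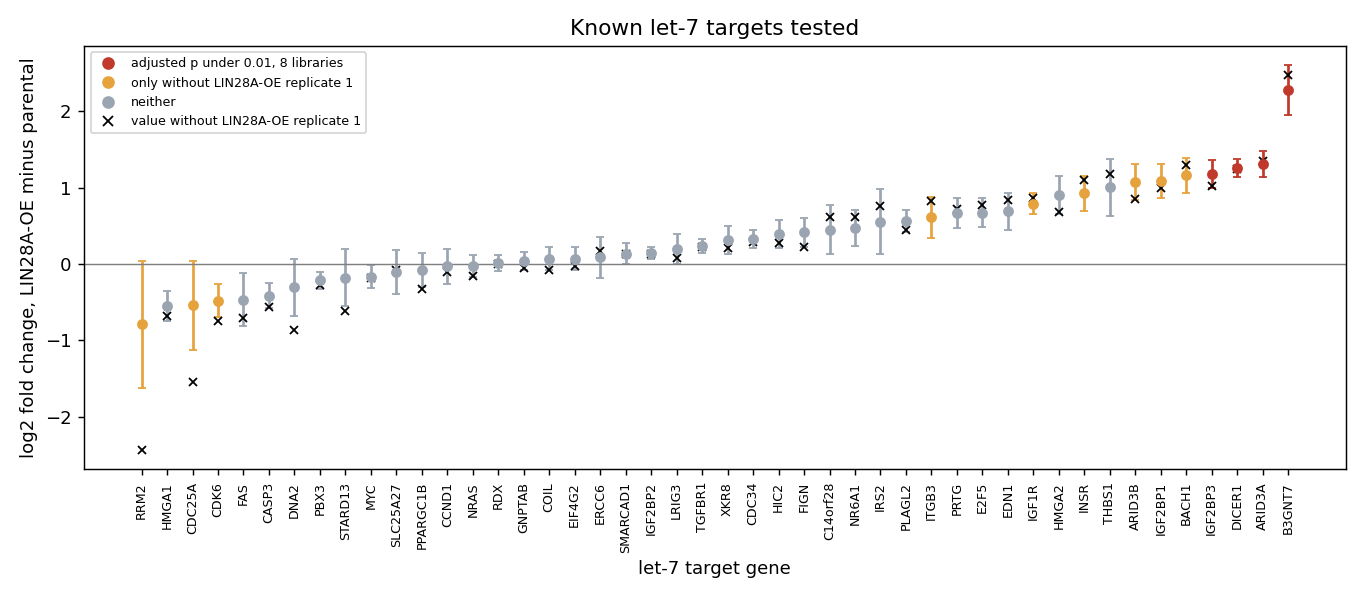
log2 fold change (LIN28A-OE minus parental, bars are 1 SE) of the known let-7 targets tested, 1 of the 47 left out, ordered by size, with crosses for the value without LIN28A-OE replicate 1. B3GNT7 (2.28), ARID3A (1.31), DICER1 (1.26) and IGF2BP3 (1.17) at the right end passed in all 8 libraries, and RRM2, CDC25A and CDK6 at the left end passed, as lower, once LIN28A-OE replicate 1 was left out.

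Among 24 tested genes of LIN28 action and miRNA biogenesis, 2 rose (8.33%, against 0.982% of all genes) and none fell. They were LIN28A, which is the overexpressed gene itself, and DICER1, and the median of the list was 0.11. XPO5, which exports miRNA precursors from the nucleus, was at 170, 110, 116 and 130 CPM in LIN28A-OE and 182, 155, 161 and 163 in the parental line, which overlapped (-0.33, SE 0.14, adjusted p = 0.176).

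NF-kB and inflammatory cytokine genes leaned lower. Of 23 tested, 4 fell and 1 rose (17.4% and 4.35%, against 0.513% and 0.982% of all genes), the median was -0.46, and 4 of the 23 had a positive fold change. Besides CXCL8 and TNFAIP3, the neutrophil chemokine CXCL5 fell, at 3.95, 3.96, 3.32 and 3.72 CPM against 10.7, 9.94, 9.12 and 8.99 (-1.37, SE 0.14, adjusted p = 0.00192). RELB, a subunit of NF-kB, fell from 33.5 ± 2.68 to 19.9 ± 1.91 CPM (mean ± SD, n = 4; -0.75, adjusted p = 0.00791). The 1 that rose was the chemokine CCL5, from 0.440, 0.201, 0.181 and 0.240 CPM to 2.09, 1.57, 3.32 and 1.86 (3.03, SE 0.40, adjusted p = 0.00524), a low level in both groups. The list's mean level was below that of every parental library in each LIN28A-OE library, 4.79 to 5.37 against 5.44 to 5.66. Without LIN28A-OE replicate 1, 7 fell and 3 rose (30.4% and 13%, against 6.5% and 8.01% of all genes), NFKB1, IL24 and IL32 joining those lower.

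No interferon-stimulated gene of 42 tested was called in either direction at this threshold, and the median was 0.21. In edgeR 12 of the 42 had an unadjusted p under 0.05, 10 of these higher, where 27.1% of all genes had such a p. DESeq2 called 1 as higher, where it called 7.14% of all genes. OAS1, the first of the list, was at 8.81, 9.90, 20.5 and 15.7 CPM in LIN28A-OE and 2.31, 2.41, 2.62 and 5.39 in the parental line (2.11, SE 0.36, adjusted p = 0.0111). Its groups did not overlap, and the parental library of replicate 4 was the closest to them.

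Glycolysis and glucose uptake genes leaned lower as well. The median of 28 was -0.57, and 4 had a positive fold change. The single call, as lower (3.57%, against 0.513% of all genes), was HK2, the hexokinase that traps glucose. HK2 was at 19.9, 23.5, 18.1 and 24.97 CPM in LIN28A-OE and 61.5, 64.2, 74.0 and 42.2 in the parental line (-1.49, SE 0.18, adjusted p = 0.00362), with no overlap. SLC2A1, the main glucose transporter of cancer cells, differed by -1.22 (adjusted p = 0.0219) and PDK1, which restrains entry of pyruvate into mitochondria, by -1.42 (adjusted p = 0.0291). The transporter SLC2A3 lay on the other side, at 1.98, 6.29, 4.04 and 2.84 CPM against 0.440, 1.20, 1.53 and 0.599, with no overlap (1.96, adjusted p = 0.0351). Without LIN28A-OE replicate 1, 10 of the 28 fell and 2 rose (35.7% and 7.14%, against 6.5% and 8.01% of all genes), the 10 including GPI, PFKL, PGK1, ALDOA, PGAM1 and LDHA. With the cell cycle covariate 2 fell (7.14%, against 1.43% of all genes) and the median was -0.30. Of 18 hypoxia response genes edgeR called none. In edgeR 7 had an unadjusted p under 0.05 (against 27.1% of all genes), and DESeq2 called 5 (against 7.14% of all genes). BNIP3, a mitophagy receptor, came closest (-1.01, adjusted p = 0.0105).

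Insulin and IGF signalling genes leaned higher. Of 34 tested, 28 had a positive fold change, the median was 0.30 and 1 was called, as higher (2.94%, against 0.982% of all genes). That gene was IGFBP4, a secreted binding protein of IGFs, at 573, 808, 803 and 660 CPM in LIN28A-OE and 361, 334, 341 and 413 in the parental line (0.97, SE 0.14, adjusted p = 0.00678). FOXO1, the transcription factor that insulin signalling restrains, was at 16.5, 42.2, 31.6 and 33.1 CPM against 5.61, 13.9, 9.12 and 7.91 (1.75, SE 0.33, adjusted p = 0.0157). Without LIN28A-OE replicate 1, 11 rose and none fell (32.4%, against 8.01% of all genes higher), and with the cell cycle covariate 3 rose (8.82%, against 2.27%). IGF1R and INSR belong to this list and to the let-7 targets.

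Epithelial junction and keratin genes moved both ways, with 3 of 40 higher and 2 lower (7.5% and 5%, against 0.982% and 0.513% of all genes) and a median of -0.16. LLGL2, a polarity protein of the lateral membrane, stood at 94.0, 133, 121 and 112 CPM against 45.7, 44.9, 43.2 and 45.9 (1.35, SE 0.12, adjusted p = 0.00144). JUP, plakoglobin of junctions, and CDH1, E-cadherin, rose by 1.19 and 0.91 (adjusted p = 0.00519 and 0.00830). CDH1 was at 120, 163, 173 and 188 CPM against 79.1, 91.7, 88.9 and 83.4, with no overlap. Those that fell were ITGB4, the hemidesmosome integrin (-0.73, adjusted p = 0.00543), and PKP1, a desmosomal plakophilin (-1.56, adjusted p = 0.00690). In the list of mesenchymal genes and regulators of epithelial-mesenchymal transition, 1 of 25 was called, as higher (4%, against 0.982% of all genes). It was S100A4, a calcium-binding protein of motile cells, at 38.2, 51.4, 44.7 and 49.9 CPM against 19.3, 26.5, 16.8 and 19.4 (1.17, SE 0.16, adjusted p = 0.00589). The median of that list was 0.10.

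Of 15 tested metalloproteases and plasminogen activators, 1 fell (6.67%, against 0.513% of all genes) and none rose. It was ADAM19, at 18.6, 17.2, 15.8 and 19.7 CPM against 32.4, 31.4, 28.6 and 43.2 (-0.93, SE 0.15, adjusted p = 0.00905). MMP28 was not on this list. The urokinase gene PLAU differed by -1.07 (adjusted p = 0.0127) and TIMP2, an inhibitor of metalloproteases, by 0.79 (adjusted p = 0.0125), neither with overlap. Among 14 receptors and ligands of the EGFR family, 1 rose and 1 fell (7.14% each, against 0.982% and 0.513% of all genes). ERBB2 (HER2) rose, at 212, 248, 310 and 254 CPM against 153, 134, 136 and 146 (0.85, SE 0.13, adjusted p = 0.00729). The ligand TGFA fell, at 40.7, 41.0, 27.8 and 33.1 CPM against 85.2, 70.5, 74.3 and 64.7 (-1.05, SE 0.15, adjusted p = 0.00622). Of 9 surface markers used for stem-like prostate cells, 1 fell (11.1%, against 0.513% of all genes) and none rose. It was CD44, a hyaluronan receptor, at 134, 137, 141 and 149 CPM against 266, 226, 252 and 284 (-0.87, SE 0.10, adjusted p = 0.00261). ALDH1A3 of the same list differed by -0.95 (adjusted p = 0.0359). ABCG2 was the 1 marker of the 9 with a positive fold change and was not called. Without LIN28A-OE replicate 1, 1 of the 9 rose and 2 fell (11.1% and 22.2%, against 8.01% and 6.5% of all genes).

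None of 7 tested pluripotency and germ cell genes was called by edgeR or DESeq2. In edgeR 2 had an unadjusted p under 0.05, where 27.1% of all genes did. SALL4, a stem cell factor, was at 3.56, 3.20, 3.61 and 4.41 CPM in LIN28A-OE and 2.64, 3.01, 3.34 and 2.52 in the parental line (0.35, SE 0.19, adjusted p = 0.256), and the other 15 genes of that list had too few reads to be tested. Of 28 cancer-testis antigens 2 were tested, PRAME (0.17, adjusted p = 0.392) and TKTL1, which fell (-1.99, adjusted p = 0.00366).

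The cell cycle list had a median of -0.52 over 51 genes, and edgeR called none of them. In edgeR 5 had an unadjusted p under 0.05, 4 of them higher, and DESeq2 called 1, as higher. Of all genes, 27.1% had such a p in edgeR and DESeq2 called 7.14%. Without LIN28A-OE replicate 1 the median was -1.25 and 24 of the 51 fell (47.1%, against 6.5% of all genes). The edgeR fit called no gene among 52 of oxidative phosphorylation (median -0.22), 79 cytoplasmic ribosomal proteins (0.11), 31 of the integrated stress and unfolded protein response (-0.03), 25 of cholesterol synthesis (0.05) and 32 p53 targets and apoptosis genes (-0.0015). At an unadjusted p under 0.05 these lists held 4, 0, 4, 5 and 7 genes (against 27.1% of all genes). DESeq2 called 0, 0, 1, 0 and 2 (against 7.14% of all genes). The median of the stress list was 0.15 without LIN28A-OE replicate 1 and -0.40 with the cell cycle covariate.

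**Figure D4:**
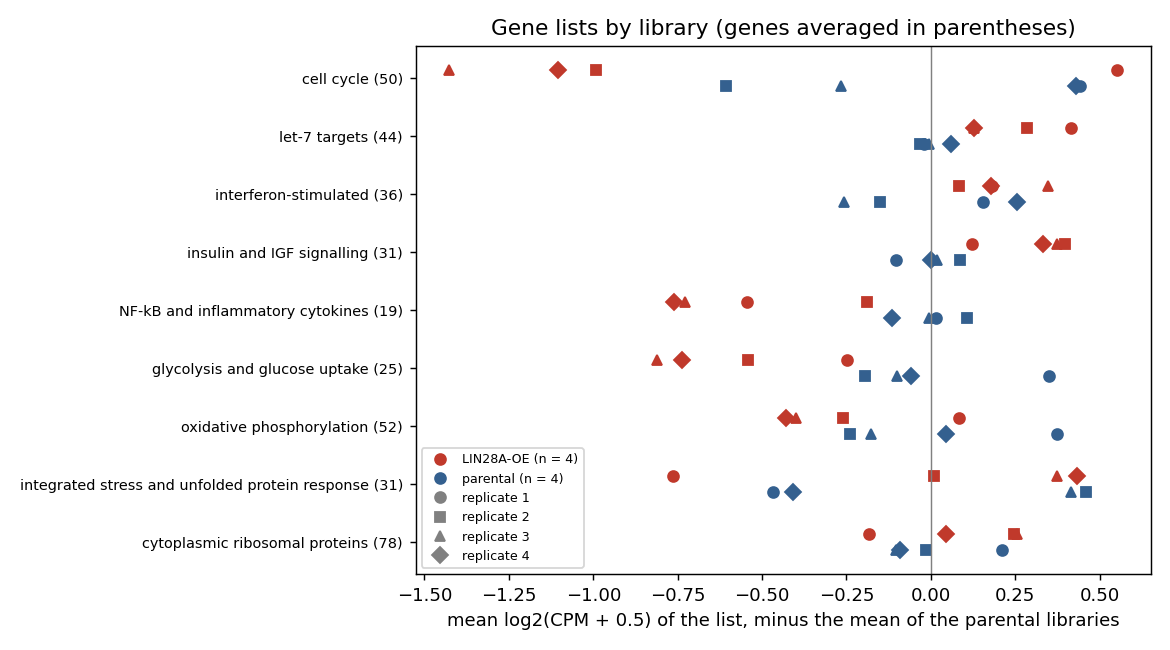
Mean log2(CPM + 0.5) of the genes of a list (rows, number of genes in parentheses) in each library, minus the mean of the 4 parental libraries; red is LIN28A-OE, blue is parental, and shapes are replicates. The let-7 targets and the insulin and IGF list are higher in all 4 LIN28A-OE libraries and the glycolysis and NF-kB lists lower, whereas in the cell cycle list LIN28A-OE replicate 1 (6.71) lies above every parental library.

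The same LIN28A-OE against LIN28A-negative comparison could be set beside that in 2 TUT4/7 double-mutant DU145 derivatives (mutant_1 and mutant_2, 16 libraries), which share no library with the wild-type comparison. All 24 libraries were fitted together for it, and in that fit 1027 genes rose and 468 fell in wild type (7.05% and 3.21%, 10.3% in all). LIN28A mRNA was higher in the mutant overexpressing lines, at 330 to 418 CPM in mutant_1 and 211 to 301 in mutant_2 against 65.5 to 76.8 in wild type on this scale. The labels give passages P1 to P4 for the mutant overexpressing lines and P9 to P12 (mutant_1) or P8 to P11 (mutant_2) for their LIN28A-negative counterparts, a far shorter span than in wild type. Hence a difference between the lines in the LIN28A effect cannot be told apart from a difference in LIN28A dose or in passage span. The labels of mutant_1 name 1 CRISPR clone throughout, but those of mutant_2 give each replicate a clone name that differs in its last number, so its 4 replicates may or may not be 1 clone. In mutant_1 294 genes rose and 219 fell (2.02% and 1.5%, 3.52% in all), and in mutant_2 1661 rose and 1251 fell (11.4% and 8.59%, 20% in all). Genes called alike in all 3 lines were 80 that rose (0.549%) and 36 that fell (0.247%), and 60.3% of all genes tested had 1 sign throughout.

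Leaving LIN28A aside, 131 genes had risen in wild type. Of these 112 had a positive fold change in mutant_1 and 128 in mutant_2, where 50.6% and 53.7% of all genes were positive. As called, 39 rose in mutant_1 and 96 in mutant_2, where 2.02% and 11.4% of all genes rose. In both mutants 32 of the 131 rose, against at most 2.02% of all genes. Of the 69 that fell in wild type, 57 were negative in mutant_1 and 58 in mutant_2. As called, 21 fell in mutant_1 and 44 in mutant_2, where 1.5% and 8.59% of all genes fell. In both mutants 17 of the 69 fell, against at most 1.5% of all genes. The median change of the 131 was 1.21 in wild type, 0.46 in mutant_1 and 0.92 in mutant_2, and that of the 69 was -1.42, -0.57 and -0.87. Both sets were picked by their calls in the wild-type libraries, which by itself favours larger medians there. These medians therefore cannot show whether the response was weaker in the mutants.

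NT5E was the clearest of the shared decreases. It encodes CD73, which makes extracellular adenosine (chromosome 6, 85450083 to 85495784). On the scale of the 24 libraries it stood at 66.3, 67.8, 67.3 and 64.1 CPM in wild-type LIN28A-OE and 173, 203, 213 and 253 in the parental line. In the 8-library fit it fell by 1.68 (SE 0.12, adjusted p = 0.000637). In mutant_1 it was at 45.2, 49.6, 48.6 and 35.8 CPM against 187, 176, 155 and 130, a change of -1.86 (SE 0.12), and in mutant_2 at 115, 122, 116 and 102 against 433, 398, 373 and 397, a change of -1.82 (SE 0.12). The groups did not overlap in any of the 3 lines. TNC fell in both mutants too (-1.66 and -2.64), as did CD44 (-0.79 and -0.96). On the other side DICER1 rose in both (0.79, adjusted p = 0.000312, and 0.64, adjusted p = 0.000561), and its change in wild type was not called different (difference 0.55, SE 0.15, adjusted p = 0.0593). ALPPL2, ALPP, MMP28 and AKR1C2 were among the genes that rose most across all 3 lines, ranked by the smallest change in any of them.

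The difference between the wild-type effect and the mean of the mutant effects was called for 60 genes (0.412% of 14561 tested), 38 more positive in wild type (0.261%) and 22 more negative (0.151%). SYK, a tyrosine kinase best known from leukocytes, was at 1.73, 0.854, 1.81 and 1.95 CPM in wild-type LIN28A-OE and 7.68, 8.11, 6.80 and 8.01 in the parental line. In mutant_1 the overexpressing libraries gave 7.22, 7.17, 7.53 and 8.31 CPM against 7.43, 6.56, 8.40 and 5.09. The mutant_1 groups overlapped, its change was 0.12 and that of mutant_2 0.32, and the difference from wild type was -2.51 (SE 0.25, adjusted p = 9.13e-06). SCN9A, a voltage-gated sodium channel, had a lower wild-type change than both mutants (difference -3.30, SE 0.42, adjusted p = 0.000119). PCOLCE2, an enhancer of procollagen processing, differed by 0.98 in wild type (adjusted p = 0.0217) and fell in both mutants, by 0.84 and 0.76 on the log2 scale (difference 1.80, SE 0.19, adjusted p = 9.13e-06). GSR, glutathione reductase, rose in wild type from 400 ± 22.96 to 777 ± 48.5 CPM (0.96, adjusted p = 0.00220), by 0.45 in mutant_2, and was at -0.04 in mutant_1 (difference 0.77, SE 0.11, adjusted p = 0.000500). STX3, a syntaxin of apical membranes, rose in wild type (0.94, SE 0.10, adjusted p = 0.00220) and read 0.04 in mutant_1 and 0.12 in mutant_2 (difference 0.87, adjusted p = 0.000460).

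Of the let-7 targets, 2 of 50 tested (4%) were called as more positive in wild type than in the mutants and none as more negative, against 0.261% and 0.151% of all genes. The difference was positive for 33 of the 50. IGF2BP3 read 27.2, 28.8, 26.5 and 25.2 CPM in mutant_1 with LIN28A and 22.8, 20.4, 29.8 and 19.4 without, and its change was 0.22 there and 0.17 in mutant_2 (difference 0.99, SE 0.19, adjusted p = 0.00844). HMGA2, the other, was not called in wild type and fell in mutant_2, from 7.26, 7.82, 6.49 and 11.2 CPM to 1.81, 2.24, 2.21 and 1.22 (difference 2.46, SE 0.33, adjusted p = 0.000273). Its change in mutant_1 was -0.98 and was not called (adjusted p = 0.0542). In mutant_2 7 of the 50 targets rose and 6 fell (14% and 12%, against 11.4% and 8.59% of all genes). Their median there was 0.03, where that of all genes was 0.04. In mutant_1 2 rose and none fell (4% and 0%, against 2.02% and 1.5%), with a median of 0.07. In wild type 11 rose and none fell in this fit (22%, against 7.05% of all genes higher). IGF1R, INSR and B3GNT7 rose in mutant_2 (0.74, 1.21 and 2.12), and their differences were not called (adjusted p from 0.468 for B3GNT7 to 0.885 for INSR). The interferon-stimulated list had 43 of 46 differences positive, a median difference of 0.78 and 3 calls, which were IFIT2, OASL and ISG20. In mutant_2 21 of the 46 fell (45.7%, against 8.59% of all genes) and none rose (11.4% of all genes did). In wild type 1 rose (2.17%, against 7.05% of all genes) and none fell in the same fit. CCL5 also fell in both mutants (-1.45 and -0.97) where it rose in wild type (difference 4.26, SE 0.45, adjusted p = 9.13e-06). With LIN28A its means were close, at 2.30 CPM in wild type, 2.14 in mutant_1 and 1.85 in mutant_2. Without LIN28A they were 0.273, 5.82 and 3.68. In the same order, OASL averaged 32.9, 21.8 and 31.4 CPM with LIN28A and 18.8, 40.2 and 121 without. IFIT2 averaged 25.1, 41.0 and 24.1 with LIN28A and 15.1, 53.2 and 74.9 without. The lines thus differed in these genes before LIN28A was added.

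**Figure D5:**
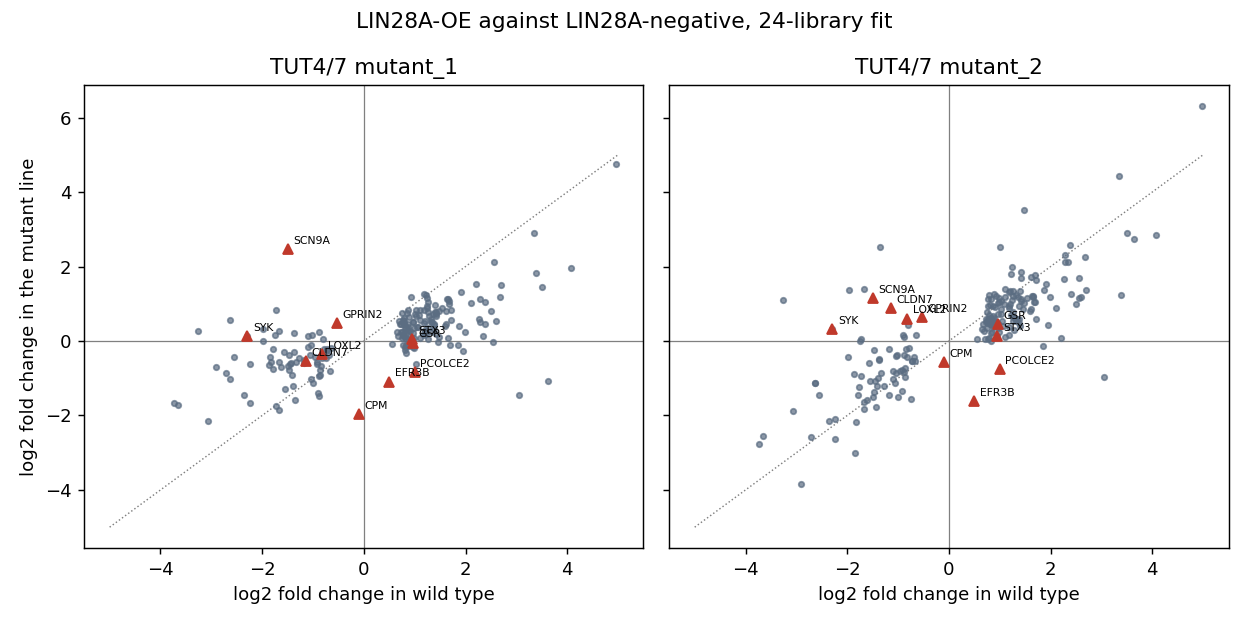
log2 fold change (LIN28A-OE against LIN28A-negative, 24-library fit) in wild type (x) and in TUT4/7 mutant_1 (left) or mutant_2 (right); grey points are the 200 genes called in wild type other than LIN28A, red triangles the 10 named genes whose effect differed between wild type and mutants, and the dotted line marks equal effects. Most grey points keep their sign, with medians of 1.21 against 0.46 in mutant_1 and 0.92 in mutant_2 for the genes that rose, while SYK and SCN9A lie at negative values in wild type and positive ones in both mutants. The grey points were picked by their wild-type calls, which by itself favours larger wild-type values.

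The 201 calls were spread over the genome. The median log2 fold change of a chromosome's genes ran from -0.09 on chromosome 8 to 0.06 on chromosome 7, so none of the 23 chromosomes was shifted as a whole by as much as 0.1.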

How the data were processed

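Poly(A) RNA libraries were made with a directional kit. The authors trimmed reads with Trimmomatic 0.39, aligned them to hg38 with HISAT2 2.1.0 and counted them per gene with HTSeq. The deposited values are raw read counts. The strand setting and annotation of the counting are not given in the sources used here, so overlapping genes are uncertain. The deposited miRNA read counts of the small RNA libraries were turned into shares of all miRNA reads.

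Summary lines that name no gene were removed. The 8 libraries were fitted with edgeR 4.0.16 in R 4.3.3 (filterByExpr, TMM, quasi-likelihood F test, two-sided, called at an adjusted p under 0.01). SE is the absolute log2 fold change divided by the square root of F. CPM of mRNA were computed from library totals for the cell type markers and otherwise from TMM-scaled library totals of the 8 libraries. Where CPM of the mutants are given, they and the wild-type CPM beside them were scaled over the 24 libraries. List means used genes of at least 5 CPM on average. The interaction was fitted on 24 libraries. The members and gene lists were chosen with earlier results of these data known. Genes were named by fixed rules, namely the LIN28 and TUT genes, the 12 largest changes each way with at least 5 CPM and no overlap, the smallest adjusted p-values of each list, the 5 leading interaction genes each way and the 8 leading shared genes each way. Alternatives were DESeq2 1.42.0, other scaling, filter and threshold, a replicate block, subsets of libraries and, chosen after seeing the data, a cell cycle covariate. Some genes are not reported here. The test was checked on simulated counts. Symbols were matched to RefSeq for coordinates (23758 of 26485).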

Additional observations from a re-analysis of the deposited data

Results flagged for a closer look

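Among 283 sets of 4 library values (named genes, list means and library measures), 22 had an extreme library whose gap to its neighbor took a larger part of the set's range than Dixon's critical value for 4 values, or 7.77% where chance gives about 5%. LIN28A-OE replicate 1 was the extreme library in 4 of them. It was low for KLB (gap 0.836 of the range), CDKN1C (0.885) and TP53INP1 (0.833), and its share of reads in no feature was low (0.898).

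The other LIN28A-OE sets had a high replicate 2 for TFAP2C (0.873) and for the mean of the EGFR family list (0.835), a low replicate 2 for SYK (0.875), and a low replicate 4 for TKTL1 (0.929) and NT5E (0.858). In the parental line, replicate 3 was the 1 library with LIN28A counts (1, the whole range) and was high for the p53 target list (0.887), and replicate 2 was low for the mesenchymal list (0.870). Parental replicate 1 was low for KLB (0.838), EPAS1 (0.969), TP53INP1 (0.830) and NPNT (0.860). Parental replicate 4 was high for ARID3A (0.904), OAS1 (0.860) and SREBF1 (0.914) and low for LOXL2 (0.850), RPL22 (0.923) and GPRIN2 (0.840).

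The LIN28A effect differed between wild type and the TUT4/7 mutants, in the 24-library edgeR fit, for 10 named genes. The wild-type effect was more positive for PCOLCE2 by 1.80, the carboxypeptidase gene CPM by 1.17, EFR3B by 1.86, STX3 by 0.87 and GSR by 0.77 on the log2 scale. It was more negative for SYK (-2.51), SCN9A (-3.30), CLDN7 (-1.32), LOXL2 (-0.94) and GPRIN2 (-1.08). Adjusted p-values ran from 9.13e-06 for SYK to 0.00460 for GPRIN2. The 2 kinds of line also differed in LIN28A level and in passage span. These differences in effect cannot be told apart from either, and their part was not tested.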

How the results depend on the processing

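The 201 calls became 1048 with DESeq2 (all 201 among them), 639 with a replicate block, 1041 at an adjusted p under 0.05, 1495 with 24 libraries in one fit, 1581 with replicates 3 and 4 only, 497 with the cell cycle covariate and 132 with a log2 change of at least 1. With replicates 1 and 2 only it was 0 in edgeR (796 genes at an unadjusted p under 0.05; DESeq2 called 42), and leaving out one library at a time gave 4 to 1973. The sign of all 201 held in each of these, which fits on fewer libraries could hardly have changed, because the groups did not overlap. LIN28A stayed at 8.56 to 12.73 with a library left out; with replicates 1 and 2 only it was 12.89 (adjusted p = 0.0232), where all parental counts are 0 and the size depends on the prior count. PRAME, never called, turned to -0.012 with replicates 1 and 2 only. The interaction count of 60 became 219 with DESeq2, 263 at an adjusted p under 0.05 and 26 to 259 with a library left out. The 513 calls of mutant_1 became 906 with DESeq2, 1560 at 0.05 and 219 to 706 with a library left out, and the 2912 of mutant_2 became 5811 at 0.05 and 1685 to 4107. The let-7 difference of -5.78 percentage points was -5.92 to -5.58 with a library left out (exact p = 0.0571, the smallest 3 against 4 allow), and -5.78 in the replicate block (exact p = 0.125, the smallest 4 pairs allow). Same-numbered deviations correlated at 0.658, 0.200, 0.356 and -0.271; since not every pair was above 0.1, and the labels name no shared batch, the numbers were not taken as pairs. LIN28B and most germ cell genes had too few counts to be tested at this depth.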

Other observations

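Targets of NRF2, the factor that turns on antioxidant and detoxifying genes, were looked at after AKR1C1 and GSR had been seen to rise, so the list is a description. Of 24 tested, 4 rose (AKR1C1, AKR1C2, GSR and PGD) and 1 fell (HMOX1), where 0.982% and 0.513% of all genes did, and the median log2 fold change was 0.20. PGD, an enzyme of the pentose phosphate pathway, was at 516, 698, 649 and 590 CPM in LIN28A-OE replicates 1 to 4 and 360, 349, 328 and 322 in the parental ones, with no overlap (0.85, SE 0.12, adjusted p = 0.00595, edgeR). HMOX1, heme oxygenase 1, was at 36.4, 40.5, 32.6 and 35.3 CPM against 70.7, 65.4, 65.6 and 53.2, again with no overlap (-0.82, SE 0.12, adjusted p = 0.00673). NQO1, the most used marker of NRF2 activity, overlapped between the groups at 2052 to 2465 CPM against 1768 to 2387 (0.14, SE 0.14, adjusted p = 0.523).

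Of the alkaline phosphatases outside the placental pair, ALPI and ALPL had at most 0.686 CPM in any library and were not tested. MUC16, which encodes the antigen CA125, was at 43.4 to 82.2 CPM in LIN28A-OE and 11.05 to 34.0 in the parental line.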
